A study of Saccharomyces cerevisiae with 4 samples.

Results

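This section follows the messenger RNAs of 44 yeast genes that encode the cytosolic translation factors, from initiation to ribosome recycling, together with the Gcn2 kinase branch that restrains initiation. Members were taken by name, as probe sets whose gene symbol is one of the 44 alone. Of the 44 genes, 38 had such a probe set (48 probe sets) among 5656 genes on the array, and 36 of these lay above the floor on all 4 arrays, among 3923 measured genes. TIF4632 and GCN2 did not pass that floor. TIF1, TIF2, TEF1, TEF2, EFT1 and EFT2 were read only by a probe set that names a pair of genes.

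The cells were Saccharomyces cerevisiae strain BY4741, a MATa laboratory strain that the labels describe as his3Δ1, leu2Δ0, met5Δ0 and ura3Δ0, grown in rich medium at 30 °C. The groups were polysomal RNA of DTT-treated cells, polysomal RNA of control cells, sub-polysomal RNA of DTT-treated cells and sub-polysomal RNA of control cells, with 1 array each. Treated cultures received 2 mM dithiothreitol (DTT), a reductant that blocks disulphide bond formation in the endoplasmic reticulum, for 1 h, and control cultures received water. All 4 groups shared the strain, the cycloheximide that stalls ribosomes, buffers with 0.5 mM DTT and the pooling of RNA from 3 extracts. Spread between the extracts, and between any separate cultures behind them, was thus averaged before the measurement and is not visible.

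Translation begins when initiation factor eIF2, charged with GTP and initiator tRNA, joins the small ribosomal subunit with eIF1, eIF1A, eIF3 and eIF5, and the eIF4 factors bring this complex to the capped mRNA. eIF2B recharges eIF2 with GTP, and the kinase Gcn2, which is activated through Gcn1 and Gcn20, phosphorylates eIF2 and thereby slows eIF2B. The elongation factors eEF1A, eEF2 and, in fungi, eEF3 then drive the ribosome along the mRNA, the release factors eRF1 and eRF3 end synthesis, and Rli1 splits the ribosome for another round. In growing yeast many of these proteins are abundant, and their transcripts are regulated together with other parts of the translation machinery.

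Values below are log2 differences between arrays, each centred on the median of its measured probe sets, and intensities are the deposited linear values. No difference was tested, since each group had a single array, and a limit of 2-fold stands in for a call. The only yardstick at hand is the SD (log2) between probe sets of the same gene, computed over 161 genes. Such probe sets share each array and its pooled RNA, so this SD holds no spread between cultures, extracts or arrays. It was 0.41 for DTT over control in polysomal RNA, 0.45 in sub-polysomal RNA, 0.32 for polysomal over sub-polysomal RNA in DTT-treated cells, 0.41 in control cells and 0.43 for the change in that ratio. The array of control sub-polysomal RNA was the least like the others: its rank correlation with them was 0.885 to 0.920, and its 3' over 5' ratio of actin probe sets was 2.49, against 1.48 to 1.91 on the other arrays. For SPT15 that ratio was high on both sub-polysomal arrays, at 4.83 with DTT and 4.41 in control cells, against 3.12 with DTT and 3.11 in control cells on the polysomal arrays. The part of these differences in the sub-polysomal and polysome ratio results was not tested. DTT over control in polysomal RNA takes its intensities from neither sub-polysomal array. The floor on all 4 arrays still sets which genes are counted and the median used for centring. With no floor the median polysomal change was -0.37 over the factors and -0.01 over all genes.

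Translation factor transcripts were lower with DTT in polysomal RNA, nearly as a block. Of the 36 measured factors 33 (91.7%) had a polysomal log2 change below 0, against 57.8% of all 3923 genes. The factors' median was -0.49 (1.40-fold lower), against -0.10 over all genes. A total of 32 lay below the all-gene median. The changes were modest in size: 1 of 36 factors was at least 2-fold lower, against 7.04% of all genes, and 0 were 2-fold higher, against 4.33%. At a 1.5-fold limit 14 of 36 (38.9%) were lower, against 19.2% of all genes. The SD among the 36 changes was 0.32, against 0.65 over all genes. The SD of 0.41 between probe sets of 1 gene was pooled over 161 genes whatever their brightness. It need not be the error of the factors, of which 33 had a mean level above the all-gene median. The values are relative to the RNA of a fraction, so that a change in the total RNA of that fraction is not visible, and in bulk RNA fewer cells holding a transcript and less of it per cell cannot be told apart.

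In sub-polysomal RNA the factors were more scattered. Their median change was -0.37, against -0.20 over all genes. Below 0 lay 30 of 36 (83.3%), against 62.3% of all genes, but only 22 of 36 lay below the all-gene median. SUI1, TIF11 and YEF3, or 3 factors, were at least 2-fold lower, against 11.1% of all genes, and 0 were 2-fold higher, against 5.68%. At the 1.5-fold limit 10 of 36 (27.8%) were lower, against 27.2% of all genes, a share equal to the background. In both fractions together 30 of 36 factors (83.3%) lay below 0, against 48.8% of all genes. At 1.5-fold 6 were lower in both (16.7%, against 13.8% of all genes): TIF5, GCN3, FUN12, RPG1, NEW1 and SUP45. HYP2, SUP35 and GCN1 were above 0 in both fractions, and TIF4631, PAB1 and GCD11 were above 0 in sub-polysomal RNA only. The sub-polysomal count below 0 was 24 of 38 with no floor and 27 of 36 without centring. With no floor SUI2, GCD2, GCD6, TIF3, DED1, EFB1, RLI1 and GCN20 turned above 0 in sub-polysomal RNA.

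**Figure D1:**
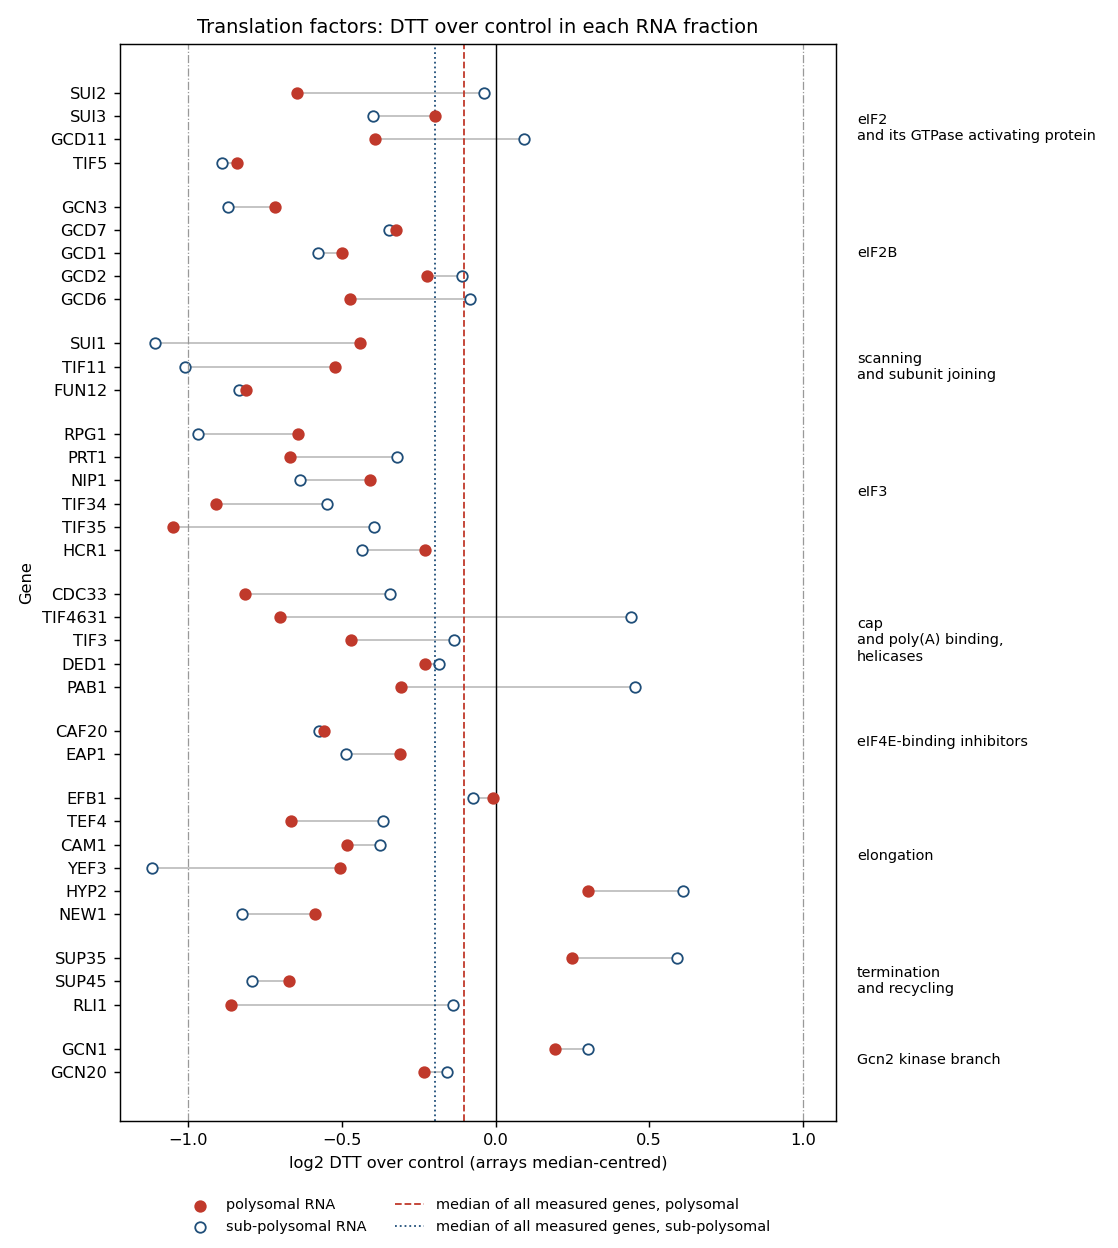
Log2 DTT over control for the 36 measured translation factors, grouped by step, in polysomal RNA (filled points) and sub-polysomal RNA (open points), each from 1 array per group. Grey lines join the values of a gene, dash-dotted lines mark 2-fold, and dashed and dotted lines mark the medians of all 3923 measured genes (-0.10 in polysomal, -0.20 in sub-polysomal RNA). All 23 measured initiation factors lie below 0 in polysomal RNA, against 57.8% of all genes. With hybridisation control centring 19 of 23 did, where SUI3, GCD2, HCR1 and DED1 turned sign, and with no floor 23 of 24.

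The factors' median in polysomal RNA was below that of all genes under each setting tried. Across 8 alternative settings the factors' median lay between -0.52 and -0.25, and its distance below the all-gene median lay between -0.46 and -0.36. Centring on other probe sets, or not centring, shifts all genes alike and cannot alter this distance; under quantile scaling it was -0.42 and under loess scaling -0.46. In sub-polysomal RNA the median ranged from -0.46 to -0.15 and the distance from -0.23 to -0.13. Centring on the spiked hybridisation controls raised the all-gene median in polysomal RNA to 0.14, and 27 of 36 factors were then below 0.

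**Figure D2:**
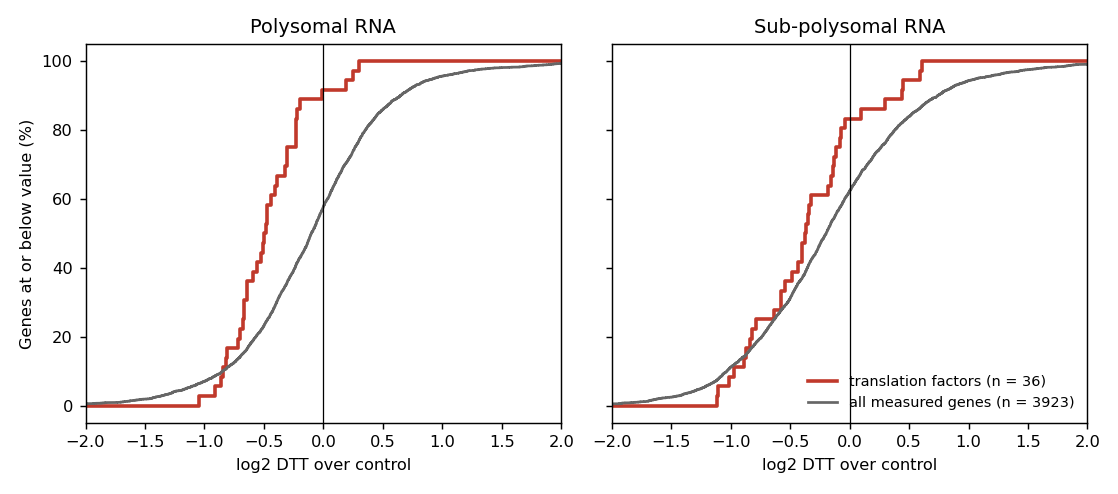
Cumulative share of genes (percent) at or below each log2 DTT over control value, for the 36 translation factors and all 3923 measured genes, in polysomal RNA (left) and sub-polysomal RNA (right); the axis is cut at -2 and 2. Apart from the lowest values, the factors' curve lies to the left in polysomal RNA, with 33 of 36 factors below 0 against 57.8% of all genes. The curves are closer together in sub-polysomal RNA.

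**Figure D3:**
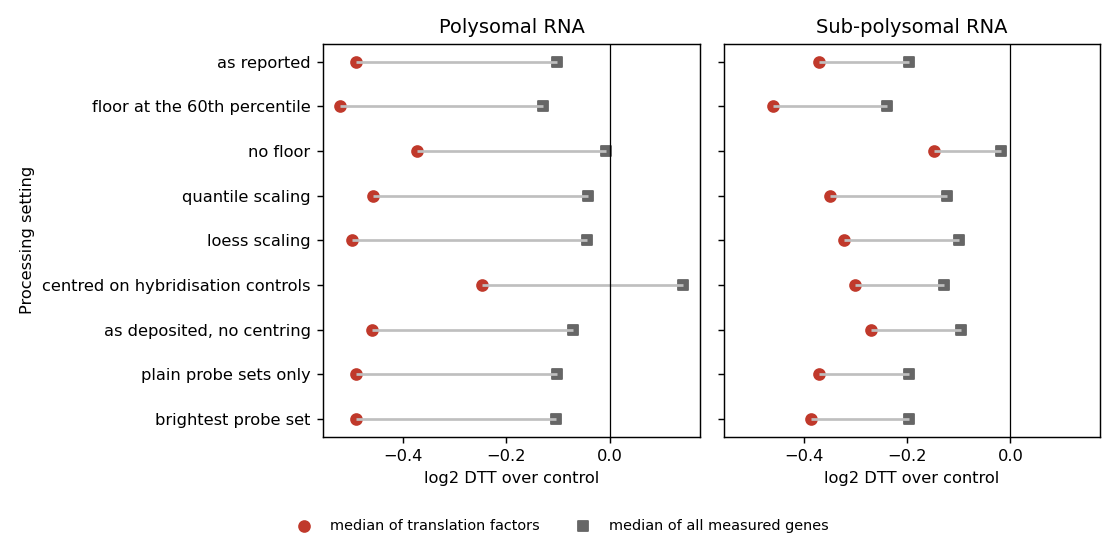
Median log2 DTT over control of the translation factors (circles) and of all measured genes (squares) under the reported processing and 8 alternative settings, in polysomal RNA (left) and sub-polysomal RNA (right). The factors' median is below 0 and below the all-gene median in every setting shown, by 0.36 to 0.46 in polysomal RNA.

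The trimeric eIF2 and the protein that triggers its GTPase were all lower in polysomal RNA (SUI3 turned to 0.04 with hybridisation control centring), and differed from each other in the sub-polysomal fraction. TIF5 encodes eIF5, the GTPase activating protein of eIF2. It read 78.1 on the DTT polysomal and 137 on the control polysomal array, and 76.9 with DTT and 133 in control sub-polysomal RNA. Both DTT arrays were lower than both control arrays, with log2 changes of -0.84 in polysomal and -0.89 in sub-polysomal RNA. GCD11, for the GTP-binding gamma subunit, read 479 with DTT and 615 in control polysomal RNA, and 312 with DTT and 273 in control sub-polysomal RNA. Here the order of the arrays turned between the fractions (-0.39 and 0.09), with both values within the probe set SDs of 0.41 and 0.45. The alpha subunit gene SUI2, which encodes the protein that Gcn2 phosphorylates, stood at -0.64 in polysomal and -0.04 in sub-polysomal RNA, and the beta subunit gene SUI3 at -0.20 and -0.40.

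The 5 subunits of eIF2B, the exchange factor that recharges eIF2, were below 0 in both fractions, with polysomal changes between -0.72 and -0.22, although GCD2 turned sign in polysomal RNA with hybridisation control centring and GCD6 in sub-polysomal RNA with no floor and without centring. GCN3, for the non-essential regulatory alpha subunit, was lowest in both, at -0.72 and -0.87. The beta and gamma subunit genes GCD7 (-0.32 and -0.35) and GCD1 (-0.50 and -0.58) had similar changes in the fractions. GCD6, for the catalytic epsilon subunit, stood at -0.47 in polysomal and -0.08 in sub-polysomal RNA. GCD2, for the delta subunit, lay furthest from the factors' median among them. It read 27.2 on the DTT and 31.1 on the control polysomal array, and 50.0 on the DTT and 50.3 on the control sub-polysomal array. These values are close to the floors of 15.9 and 17.6 in polysomal RNA and differ little between treatments (-0.22 and -0.11); the sub-polysomal sign turned under quantile scaling, under loess scaling and with no floor.

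The small factors that hold the scanning ribosome open had their larger differences in sub-polysomal RNA. SUI1 encodes eIF1, which guards start codon choice. It read 276 with DTT and 366 in control polysomal RNA, and 304 with DTT and 611 in control sub-polysomal RNA. The control sub-polysomal array was thus higher than the other 3, and the log2 changes were -0.44 in polysomal and -1.11 (2.16-fold lower) in sub-polysomal RNA. TIF11, for eIF1A, read 257 with DTT and 361 in control polysomal RNA, and 222 with DTT and 417 in control sub-polysomal RNA, with changes of -0.52 and -1.01. The sub-polysomal call of SUI1 ended with no floor, and that of TIF11 ended with no floor, with hybridisation controls and without centring. FUN12, for the GTPase eIF5B that joins the subunits, read 351 with DTT and 603 in control polysomal RNA, and 398 with DTT and 661 in control sub-polysomal RNA. Its changes of -0.81 and -0.83 were alike in the fractions.

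All 6 genes of eIF3, the large scaffold of the initiation complex, were lower in both fractions, with medians of -0.66 in polysomal and -0.49 in sub-polysomal RNA; HCR1 alone turned sign, to 0.01 in polysomal RNA with hybridisation control centring. TIF35, for the RNA-binding g subunit, was the 1 factor past 2-fold in polysomal RNA. It read 274 with DTT and 556 in control polysomal RNA, and 259 with DTT and 318 in control sub-polysomal RNA. The control polysomal array was higher than the other 3, with log2 changes of -1.05 (2.07-fold lower) and -0.40, and the polysomal call ended with no floor and with hybridisation control centring, where it was -0.93 and -0.81. Its partner TIF34, the i subunit, stood at -0.91 and -0.55. The core subunit genes RPG1 (a subunit, -0.64 and -0.97), PRT1 (b subunit, -0.67 and -0.32) and NIP1 (c subunit, -0.41 and -0.63) differed in which fraction had the larger change. HCR1, for the loosely bound j subunit, lay nearest 0 in polysomal RNA (-0.23 and -0.43).

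The factors that bind the cap, the mRNA tail and the scaffold between them had polysomal changes between -0.81 and -0.31. CDC33 encodes eIF4E, the cap-binding protein. It read 325 with DTT and 560.2 in control polysomal RNA, and 372 with DTT and 439 in control sub-polysomal RNA (-0.81 and -0.34). The scaffold gene TIF4631, for the major form of eIF4G, read 66.5 with DTT and 106 in control polysomal RNA, and 108 with DTT and 74.2 in control sub-polysomal RNA. The DTT array was lower in the polysomal and higher in the sub-polysomal fraction, at -0.70, which exceeds the probe set SD of 0.41, and 0.44, which lies just below that of 0.45. PAB1, for the poly(A)-binding protein, had the same pattern of signs, with 598 with DTT and 724 in control polysomal RNA, and 393 with DTT and 268 in control sub-polysomal RNA (-0.31 and 0.45). Its polysomal value is within the probe set SD of 0.41.

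Of the factors that unwind mRNA during scanning, TIF3 and DED1 had probe sets of their own. TIF3, for eIF4B, which stimulates the helicase eIF4A, read 340.2 with DTT and 462 in control polysomal RNA, and 242 with DTT and 248 in control sub-polysomal RNA (-0.47 and -0.13). DED1, for a DEAD-box helicase that unwinds leader sequences, stood at -0.23 and -0.18. The inhibitors that compete with eIF4G for eIF4E were lower in both fractions. EAP1 read 319 with DTT and 388 in control polysomal RNA, and 357 with DTT and 466 in control sub-polysomal RNA (-0.31 and -0.49). CAF20 stood at -0.56 and -0.57.

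Elongation factors held both the lowest and the highest sub-polysomal values among the 36. YEF3 encodes eEF3, the fungal ATPase that frees spent tRNA from the ribosome. It read 2297 with DTT and 3192 in control polysomal RNA, and 1861 with DTT and 3758 in control sub-polysomal RNA. Both DTT arrays were lower than both control arrays, at -0.50 and -1.12 (2.17-fold lower), but the sub-polysomal value was -0.27 under loess scaling, a scaling that takes out brightness trends, and it also ended as a call under quantile scaling and with no floor. NEW1, for a related ATPase, stood at -0.59 and -0.82. The nucleotide exchange complex of eEF1A was mixed. TEF4 and CAM1, for its gamma subunits, were lower in both fractions, at -0.67 and -0.36 for TEF4 and at -0.48 and -0.38 for CAM1. TEF4 was read by 2 probe sets, at 525 and 778 with DTT and 804 and 1225 in control polysomal RNA, and at 326 and 629 with DTT and 358 and 823 in control sub-polysomal RNA. CAM1 read 207 with DTT and 284 in control polysomal RNA, and 127 with DTT and 153 in control sub-polysomal RNA. For both genes each DTT array was below the control array of its fraction.

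EFB1, for the catalytic alpha subunit of that complex, had no settled direction. Its mean changes were -0.01 and -0.07, and its 2 probe sets disagreed in sign in both fractions, with polysomal changes of 0.12 and -0.14 and sub-polysomal changes of -0.41 and 0.27. Quantile scaling, loess scaling, no floor and no centring each gave values above 0 in both fractions.

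HYP2, for the hypusine-containing factor eIF5A that relieves stalls at proline stretches, was the highest factor in both fractions. It read 3361 with DTT and 2674 in control polysomal RNA, and 3333 with DTT and 2037 in control sub-polysomal RNA. Both DTT arrays were higher than both control arrays, with log2 changes of 0.30 (1.23-fold higher) and 0.61 (1.52-fold higher). The polysomal difference is within the spread between probe sets, and the values depend on brightness scaling: over the 8 alternatives they ranged from 0.28 to 0.90 and from 0.54 to 1.45, always above 0. The hypoxic duplicate of HYP2, ANB1, was lower in both. It read 48.0 with DTT and 120 in control polysomal RNA, and 51.4 with DTT and 123 in control sub-polysomal RNA, so that it was 2.55-fold and 2.57-fold lower. Of the enzymes that make hypusine on eIF5A, DYS1, for the first step, stood at 0.32 and 0.80, and LIA1, for the second step, at -1.33 and -1.16.

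**Figure D4:**
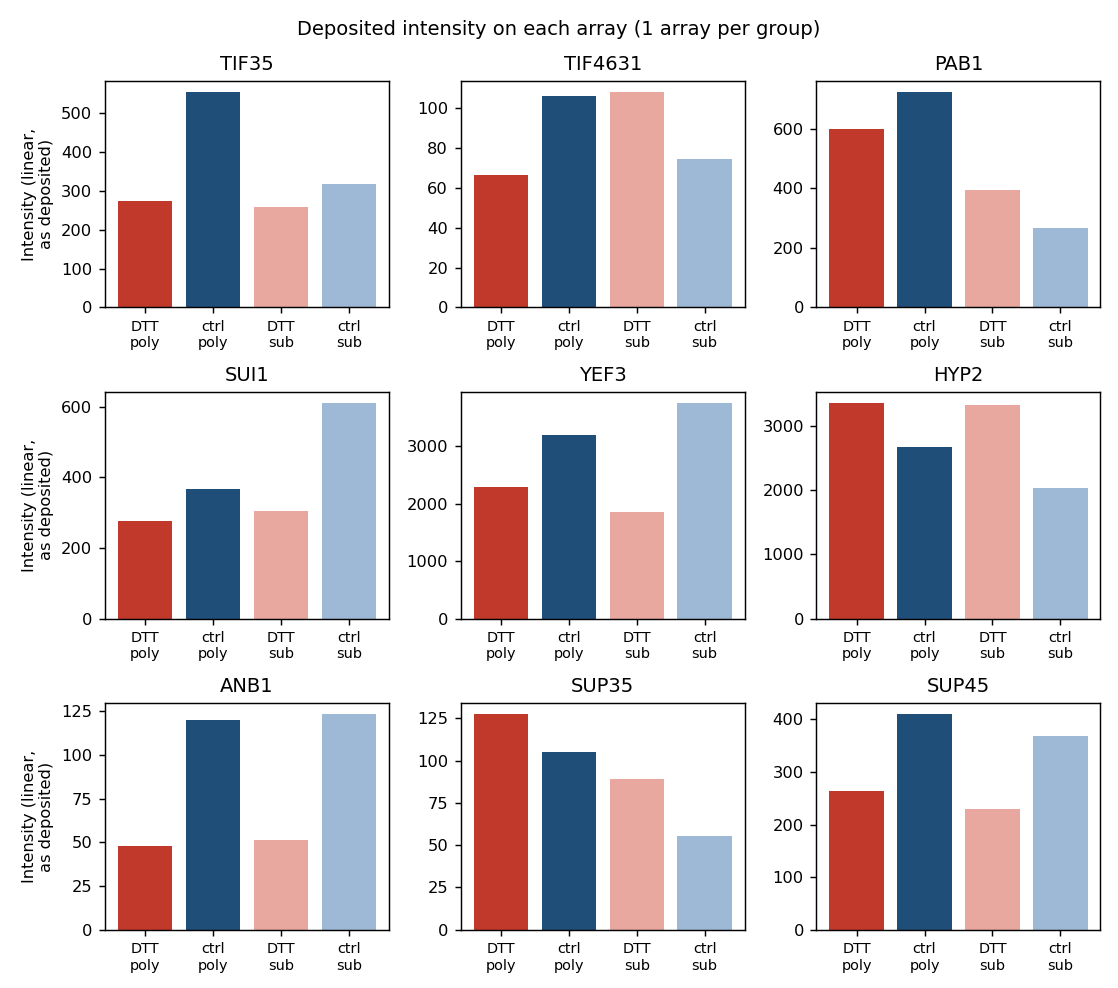
Deposited linear intensity of 9 genes on each array (DTT polysomal, control polysomal, DTT sub-polysomal and control sub-polysomal), 1 array per bar; levels are not comparable between genes and the axes start at 0. HYP2 and SUP35 are higher on the DTT array of each fraction, ANB1, SUP45, YEF3, SUI1 and TIF35 are lower, and TIF4631 and PAB1 are lower in polysomal and higher in sub-polysomal RNA.

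The 2 subunits of the release factor had opposite signs. SUP35 encodes eRF3, the GTPase subunit and the yeast prion protein. It read 128 with DTT and 105 in control polysomal RNA, and 89.2 with DTT and 55.2 in control sub-polysomal RNA, and was higher with DTT in each fraction (0.25 in polysomal and 0.59, or 1.51-fold, in sub-polysomal RNA); the polysomal value is within the probe set SD. SUP45, for the stop codon reader eRF1, is set beside it as its partner, a choice made after its values were seen. It read 263 with DTT and 410.1 in control polysomal RNA, and 229 with DTT and 369 in control sub-polysomal RNA, and was lower in each (-0.67 and -0.79). The signs of both genes were the same in every alternative that measured them. RLI1, for the ATPase that splits ribosomes after termination, read 260.2 with DTT and 463 in control polysomal RNA, and 221 with DTT and 226 in control sub-polysomal RNA. The control polysomal array was the highest, with changes of -0.86 and -0.14.

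Of the 3 genes of the Gcn2 branch 2 were measured, and neither was past 1.5-fold with DTT. GCN1, for the large ribosome-bound activator of Gcn2, was read by 9 probe sets, of which 4 lay above the floor. Its plain probe set read 172 with DTT and 168 in control polysomal RNA, and 82.9 with DTT and 77.1 in control sub-polysomal RNA, a log2 change of 0.00 in both fractions. The other 3 measured probe sets ranged from 0.09 to 0.45 in polysomal and from 0.13 to 0.72 in sub-polysomal RNA, which set the gene's means at 0.19 and 0.30. Over the 8 alternatives these ranged from 0.00 to 0.44 in polysomal and from 0.00 to 0.84 in sub-polysomal RNA, the highest with no floor in the sub-polysomal fraction. GCN20, for the partner of Gcn1, stood at -0.23 and -0.16. GCN2, the kinase gene, was below the floor of 22.6 on the DTT sub-polysomal array and has no log2 value here. It read 21.3 with DTT and 34.5 in control polysomal RNA, and 19.5 with DTT and 32.2 in control sub-polysomal RNA, lower on the DTT array of each fraction.

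Members without a value of their own can be read only as pairs or near the floor. TIF4632, for the minor form of eIF4G, read 18.2 with DTT and 15.6 in control polysomal RNA, and 10.6 with DTT and 21.4 in control sub-polysomal RNA, above the floor on 1 array. The probe set naming both TIF1 and TIF2, which encode the same helicase eIF4A, read 965 with DTT and 1512 in control polysomal RNA, and 714 with DTT and 1218 in control sub-polysomal RNA (-0.68 and -0.87). The probe set naming TEF1 and TEF2, for eEF1A, read 2447 with DTT and 3352 in control polysomal RNA, and 2146 with DTT and 3943 in control sub-polysomal RNA (-0.48 and -0.98). For EFT1 and EFT2, which encode eEF2, the values were 1195 with DTT and 1345 in control polysomal RNA, and 847 with DTT and 1120.4 in control sub-polysomal RNA (-0.20 and -0.51). In each pair both DTT arrays were below the control array of the same fraction. These 3 probe sets are outside all counts above.

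With median centring, factor transcripts leaned toward the polysomal fraction in both treatments. The median log2 ratio of polysomal over sub-polysomal RNA was 0.29 in DTT-treated cells and 0.37 in control cells, against 0.08 and -0.03 over all genes. Above 0 were 29 and 27 of 36 factors, against 2137 and 1902 of 3923 genes. In DTT-treated cells 1 factor was at least 2-fold higher in polysomal RNA, against 4.79% of all genes, and 0 were 2-fold lower, against 3.8%. In control cells 8 factors were 2-fold higher, against 7.11% of all genes, and 0 were 2-fold lower, against 6.5%. The size of this lean and the number of factors above 0 depended on scaling. Under loess scaling the medians were 0.08 in DTT-treated and 0.08 in control cells, and their distance above the all-gene medians was 0.04 and 0.07. Above 0 were then 20 and 23 of 36 factors, and 22 and 23 under quantile scaling. Most factors were bright: 33 of 36 had a mean level above the all-gene median. The part of brightness in the lean was not tested.

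The factors differed widely in this ratio, with an SD of 0.42 in DTT-treated and 0.56 in control cells. PAB1 had the highest ratio in control cells, 0.85 with DTT and 1.61 in control cells, and GCN1 the highest in DTT-treated cells, with 1.28 with DTT and 1.39 in control cells. These 2 genes were also 2-fold higher in polysomal RNA of control cells in every alternative setting, except GCN1 when read by its brightest probe set (0.995). GCD11 (0.86 with DTT and 1.34 in control cells), RLI1 (0.48 and 1.20), SUP35 (0.76 and 1.10), TIF3 (0.73 and 1.07), CAM1 (0.95 and 1.06) and TEF4 (0.74 and 1.04) were the others past 2-fold in control cells, and each of these calls ended under at least 1 alternative. Lowest in control cells were GCD2 (-0.64 with DTT and -0.52 in control cells), SUI1 (0.10 and -0.57) and NEW1 (-0.11 and -0.35), while in DTT-treated cells the lowest after GCD2 were TIF4631 (-0.46 with DTT and 0.68 in control cells), SUI2 (-0.25 and 0.35) and PRT1 (-0.23 and 0.11).

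Rank correlations with gene length (R64 gene table) were near 0. Over the 36 factors the Spearman correlation of log2 length with the polysomal over sub-polysomal ratio was -0.07 in DTT-treated and -0.05 in control cells. With DTT over control it was 0.04 in polysomal and 0.08 in sub-polysomal RNA. The Pearson correlations were 0.07 and 0.14 for the ratio, and 0.09 and 0.17 for DTT over control. The 18 longer and 18 shorter factors had median changes of -0.44 and -0.54 in polysomal RNA, and of -0.17 and -0.40 in sub-polysomal RNA. Their median ratios were 0.14 and 0.35 in DTT-treated cells, and 0.29 and 0.37 in control cells. These are descriptions across genes that share the same 4 arrays.

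**Figure D5:**
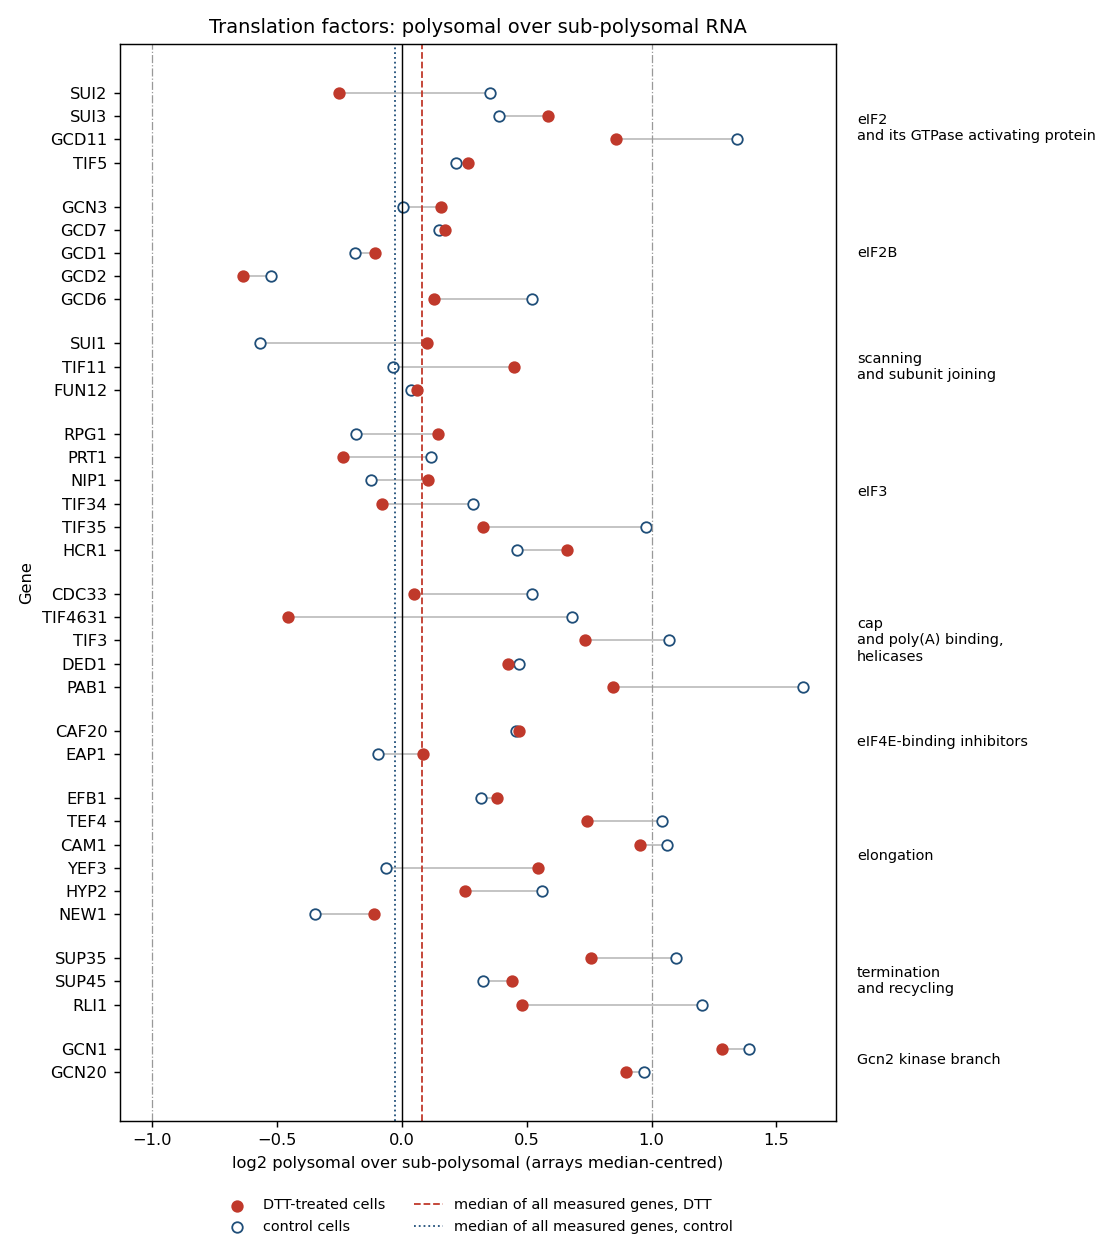
Log2 polysomal over sub-polysomal RNA for the 36 measured translation factors by step, in DTT-treated cells (filled points) and control cells (open points), 1 array per group. Dash-dotted lines mark 2-fold, and dashed and dotted lines the medians of all measured genes (0.08 with DTT, -0.03 in control cells). TIF4631, PAB1, RLI1, TIF35 and SUI2 lie further left with DTT, and SUI1, YEF3 and TIF11 further right.

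Subtracting the control ratio from the DTT ratio gives the change in polysome association. Its median over the factors was -0.06, against 0.08 over all genes. Above 0 were 17 of 36 factors, against 2228 of 3923 genes, and 25 of 36 factors lay below the all-gene median. One factor, TIF4631, was at least 2-fold lower (against 1.45% of all genes), and 0 were 2-fold higher (against 1.99%). TIF4631 had a ratio of -0.46 in DTT-treated and 0.68 in control cells, a change of -1.14, and ranged from -1.26 to -0.97 over the 8 alternatives, ending as a call with hybridisation control centring. The 5 measured genes of cap and poly(A) binding and the helicases were all below 0 (median -0.47, DED1 turning sign with the 60th percentile floor and with hybridisation controls), with PAB1 at -0.76, CDC33 at -0.47, TIF3 at -0.34 and DED1 at -0.04. Of the other initiation genes TIF35 (-0.65) and SUI2 (-0.61) were lowest. SUI1 (0.67), YEF3 (0.61) and TIF11 (0.49) were the highest. All of these values rest on the control sub-polysomal array, and except for TIF4631 they are less than 2 times the probe set SD of 0.43.

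A list of 30 further translation genes (duplicates, modifying enzymes and regulators of the factors) was chosen with earlier results of these data known. It gave similar medians, which are no independent support. Over the 26 that were measured they were -0.57 in polysomal and -0.42 in sub-polysomal RNA. Below 0 were 22 and 20 of the 26 (84.6% and 76.9%), against 57.8% and 62.3% of all genes. None of the 26 was 2-fold higher in either fraction (against 4.33% and 5.68% of all genes). At least 2-fold lower were 5 in polysomal RNA and 6 in sub-polysomal RNA (19.2% and 23.1%, against 7.04% and 11.1%). Besides ANB1 and LIA1 they were DPH2 (-1.43 and -0.70) and DPH5 (-1.25 and -1.06), which build the diphthamide residue of eEF2, the ribosome-associated GTPase gene RBG1 (-1.11 and -1.34), SRO9, for an RNA-binding protein found on polysomes (-0.87 and -1.06), and GCD14, for a subunit of a tRNA methyltransferase (-0.75 and -1.03). DPH1, of the same diphthamide pathway, stood at 0.06 and 0.32. GCN4, the transcription factor gene whose translation rises when Gcn2 is active, was singled out after its values were seen. Its polysomal over sub-polysomal ratio was -0.69 in DTT-treated and -0.84 in control cells, so that its change of 0.15 was within the probe set spread.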

How the data were processed

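RNA of 4 groups was hybridised to Affymetrix YG_S98 arrays, 1 per group. The deposited values are linear intensities that the authors scaled per array to a trimmed mean of about 100; no source used here gives the summary algorithm. The files' columns carry sample names, and 0 lack one. Each group had its own wash and scan, so that run and group cannot be told apart. Probe sets were named through GEO's platform annotation, and gene lengths came from the R64 gene table.

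Measured means above the 40th percentile of each of the 4 arrays. The log2 intensities of an array were centred on their median over 4720 measured probe sets, and probe sets of 1 gene were averaged. No test was possible; genes were counted past 2-fold. The pooled SD between probe sets of a gene served as a technical yardstick. The calculation was tested on simulated data with 200 genes changed on 1 array. Those changes were larger, and the noise smaller, than in these data. The simulation thus checks the arithmetic and not calls of the size reported here. Alternatives were another floor, scaling, probe set rule and fold limit. Python 3.11.15, pandas 2.3.3 and limma 3.58.1 were used.

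The members and lists were chosen with earlier results of these data known. Intensities per array are given for members past 2-fold in any quantity and for the member of each step furthest from the factors' polysomal median. Sequences and promoter motifs were not analysed here.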

Additional observations from a re-analysis of the deposited data

Results flagged for a closer look

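TIF4631, PAB1 and GCD11 had DTT changes of opposite sign in the fractions, each from 1 array per group, and the difference was not tested. Polysomal minus sub-polysomal, the log2 changes differed by -1.14 for TIF4631 (-0.70 and 0.44), by -0.76 for PAB1 (-0.31 and 0.45) and by -0.49 for GCD11 (-0.39 and 0.09). The same number is the change in polysome association of each gene. The sub-polysomal value of TIF4631, the polysomal value of PAB1 and both values of GCD11 were within the probe set SD of their fraction. Opposite signs were seen in 3 of 36 factors, against 883 of 3923 measured genes.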

How the results depend on the processing

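Medians of the factors kept their sign in all 8 alternatives for DTT over control in either fraction and for the polysomal over sub-polysomal ratio of either treatment. The median change in polysome association lay near 0 and ranged from -0.14 to 0.11. Centred on hybridisation controls, the median ratio in DTT-treated cells was 0.65. Counts were small and moved. In polysomal RNA 14 factors were lower at 1.5-fold, and 0 at 3-fold, with no floor or with hybridisation controls. Of all genes 19.2% were lower at 1.5-fold, and at 2-fold 9.48% with no floor and 4.18% with hybridisation controls. In sub-polysomal RNA 10 were lower at 1.5-fold, and 0 at 3-fold or with no floor. Of all genes 27.2% were lower at 1.5-fold, and at 2-fold 9.92% with no floor. Of the factors 2 were higher at 1.5-fold, and 1 under quantile and 1 under loess scaling. Of all genes 542 of 3923 were higher at 1.5-fold, and at 2-fold 7.85% under quantile and 7.21% under loess scaling. For the ratio in DTT-treated cells 10 were higher at 1.5-fold, 0 at 3-fold, 6 with no floor and 9 with hybridisation controls, and 1 was lower at 1.5-fold. Of all genes 734 of 3923 were higher and 553 lower at 1.5-fold. The share of all genes higher at 2-fold was 9.07% with no floor and 15.9% with hybridisation controls, against 4.79% as reported. For the ratio in control cells 1 was higher at 3-fold and 11 at 1.5-fold. The count was 3 with a floor at the 60th percentile, 3 under quantile scaling, 3 under loess scaling and 4 without centring. It was 11 with no floor and 10 with hybridisation controls, and 1 was lower under loess scaling. Of all genes 755 of 3923 were higher at 1.5-fold. Shares of all genes at 2-fold were 4.98% with the 60th percentile floor, 6.27% under quantile scaling, 5.61% under loess scaling and 4.56% without centring. These shares were 16.1% with no floor and 11.3% with hybridisation controls, against 7.11% as reported. Under loess scaling 5.99% of all genes were lower. For the change in polysome association 2 were higher at 1.5-fold and 1 with no floor, while 5 were lower at 1.5-fold and 0 at 3-fold or with hybridisation controls. Of all genes 532 of 3923 were higher and 358 lower at 1.5-fold. At 2-fold 5.89% of all genes were higher with no floor and 0.765% lower with hybridisation controls. The causes were not tested. Of single-gene values 1328 stayed within the probe set SD of the reported value and 102 moved further, 39 of them under loess scaling, 36 with hybridisation controls and 24 under quantile scaling; 0 values past 2-fold changed sign. No paired analysis was possible because each group holds 1 array and the labels give no replicate numbers. The number of arrays limits the precision of every value.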
